A study of Mus musculus with 39 samples.

Results

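Collagens are the main structural proteins of the extracellular matrix. The collagen genes described here are the 44 genes, of 55011 gene symbols counted, whose symbol consists of Col, a number, the letter a and a number. By textbook role they fall into 11 fibrillar collagens, which form the banded fibres of connective tissue, and 8 basement membrane collagens, which form or border the sheet around muscle fibres and vessels. A further 6 are beaded filament collagens (type VI), 9 are fibril-associated collagens, which sit on fibrils or at tendon junctions, 6 are network, anchoring or other secreted collagens and 4 are transmembrane collagens. Collagen chains are made in the endoplasmic reticulum, where prolyl and lysyl hydroxylases and the chaperone Serpinh1 (HSP47) help them wind into a helix. After secretion the ends are trimmed, fibrils assemble and lysyl oxidases link them. In skeletal muscle most fibrillar collagen is known to come from fibroblasts and fibro-adipogenic progenitors, while type IV collagen is made by several cell types, endothelial cells among them.

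RNA had been counted in 39 mouse libraries of 14 groups, made from 2 ng of whole tibialis anterior RNA or from 1000 sorted cells each. All muscle was injured with cardiotoxin, a venom peptide that destroys muscle fibres. Whole muscle of wild-type (WT) and Tcrd-DTR mice was taken 1, 3, 7 and 14 days after injury (n = 3 per group, n = 2 for DTR at day 7), and both genotypes had received intraperitoneal diphtheria toxin, which depletes γδ T cells in mice with the Tcrd-DTR allele. Satellite cells, the muscle stem cells, were sorted at day 1 from WT and DTR mice given the same toxin (n = 3 each). A further set of whole muscle, of day 7, was from wild-type animals that received the cytokine IL-17A as recombinant protein (rIL-17A), or PBS, by intraperitoneal and intramuscular routes (n = 2 each). Vγ6 γδ T cells were sorted from wild-type muscle 3 days after injury and from the colon of uninjured wild-type mice (n = 3 each), neither given diphtheria toxin per the labels. No label gives the age of the mice.

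Libraries held 2372139 to 10974862 counts. Trdc, the γδ receptor gene at the locus of the depleting allele, summed to 14 counts over the WT libraries of day 3 and to 0 over the DTR ones. The sums were 11 (WT) and 0 (DTR) on day 7, 10 and 2 on day 14, but 8 and 7 on day 1, so depletion was not visible in the libraries labelled DTR of that day. In satellite cell libraries it had 31 and 5 counts. Counts of olfactory and vomeronasal receptor genes, which muscle is not known to use, ranged from 12.05 to 2880 CPM (counts divided by the library total, times 1000000) between whole-muscle libraries and are given beside the low collagens they move with. Levels below are CPM of a library's total, and a level per kilobase (kb) divides this by the gene's longest annotated transcript. A log2 change is followed by its standard error, a mean level by its SD, and a change is called where the adjusted p of edgeR's quasi-likelihood test over all genes is under 0.05. A sum over bulk tissue cannot tell fewer cells of a type from less RNA per cell.

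Upstream sequences are shown for 3 genes on which the results turn. Col1a2 and Col3a1 are abundant fibrillar chains whose count ratios to Col1a1 differed between groups of day 7. Col15a1 is the collagen whose rise with rIL-17A held in every setting tried. Each sequence is the part of the 250 bases before the RefSeq start that no annotated exon covers (RefSeq, GRCm38.p6). It runs 5′ to 3′ on the gene's strand. Capitals mark matches to a GC box, spelled GGGCGG, or to a box like that of TATA promoters, spelled TATAAA. The motif CCAAT, which the factor NF-Y is known to bind, was searched too. So was TGACTCA, a motif of AP-1 factors. The Col1a2 stretch is chr6:4505370-4505492, the Col3a1 stretch chr1:45311288-45311537 and the Col15a1 stretch chr4:47207762-47208011, all on the plus strand.
Col1a2: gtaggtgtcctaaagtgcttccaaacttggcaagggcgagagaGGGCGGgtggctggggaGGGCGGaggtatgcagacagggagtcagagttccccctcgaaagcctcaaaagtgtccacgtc
Col3a1: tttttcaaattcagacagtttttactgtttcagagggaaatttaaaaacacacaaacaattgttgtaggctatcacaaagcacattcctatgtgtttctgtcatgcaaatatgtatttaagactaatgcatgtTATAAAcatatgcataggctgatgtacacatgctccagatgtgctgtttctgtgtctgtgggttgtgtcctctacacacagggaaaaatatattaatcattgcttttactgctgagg
Col15a1: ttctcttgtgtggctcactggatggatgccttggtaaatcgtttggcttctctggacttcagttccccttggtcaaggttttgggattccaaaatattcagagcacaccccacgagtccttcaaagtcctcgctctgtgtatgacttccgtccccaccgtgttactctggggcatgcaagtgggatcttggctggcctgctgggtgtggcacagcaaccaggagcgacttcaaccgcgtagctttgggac
The Col1a2 stretch holds 2 GC boxes and is 59.3% G and C. The Col3a1 stretch holds 1 TATAAA match and is 35.2% G and C, and the Col15a1 stretch (53.6%) holds none of the 4 motifs. Over windows of 300 bases around the start (250 before and 50 after), on both strands, GGGCGG was found in 21 of the 35 collagen genes with a window and in 35.6% of 27025 genes. CCAAT was found in 31.4% and 37.8%, TATAAA in 14.3% and 14.1% and TGACTCA in 2.9% and 5.2%. The window of Col1a2 holds a CCAAT match that lies outside the stretch shown. Matches of different motifs can share bases, and they are matches of letters and not measured binding.

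The 3 fibrillar chains Col3a1, Col1a2 and Col1a1 stood far above the other collagens in every whole-muscle group. In WT muscle at day 3 their levels per kb were 318, 309.9 and 303 CPM, against 85.25 for Col6a1, 47.1 for Col5a2 and 32.7 for Col4a2. Fibrillar collagens made up 73.5% of collagen counts of WT muscle on day 1, 79.2% on day 3, 81.1% on day 7, then 70.9% on day 14. Basement membrane collagens made up 12.35%, 6.42%, 6.97% and 13.9% on the same days. Type VI collagens stayed between 8.60% and 11.1% over these 4 WT groups. Summed over all members, collagens took 3824 to 4304 CPM of the WT libraries of day 1 and 5696 to 9106 of those of day 3. The range was 4198 to 5852 for day 7, then 2483 to 3015 for day 14. The WT libraries of day 3 thus lay above those of days 1 and 14, and overlapped those of day 7. By mean level of the group, 19 of 42 tested collagens were highest at day 3 in WT muscle (48% of all tested genes) and 14 at day 14 (23.8%). These days are by CPM of the library total and were not worked out on the scale of the tests. On library size alone the median log2 change of all genes from day 3 to day 7 was −0.74 in WT muscle. With the TMM scaling of the tests it was 0.04.

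**Figure D1:**
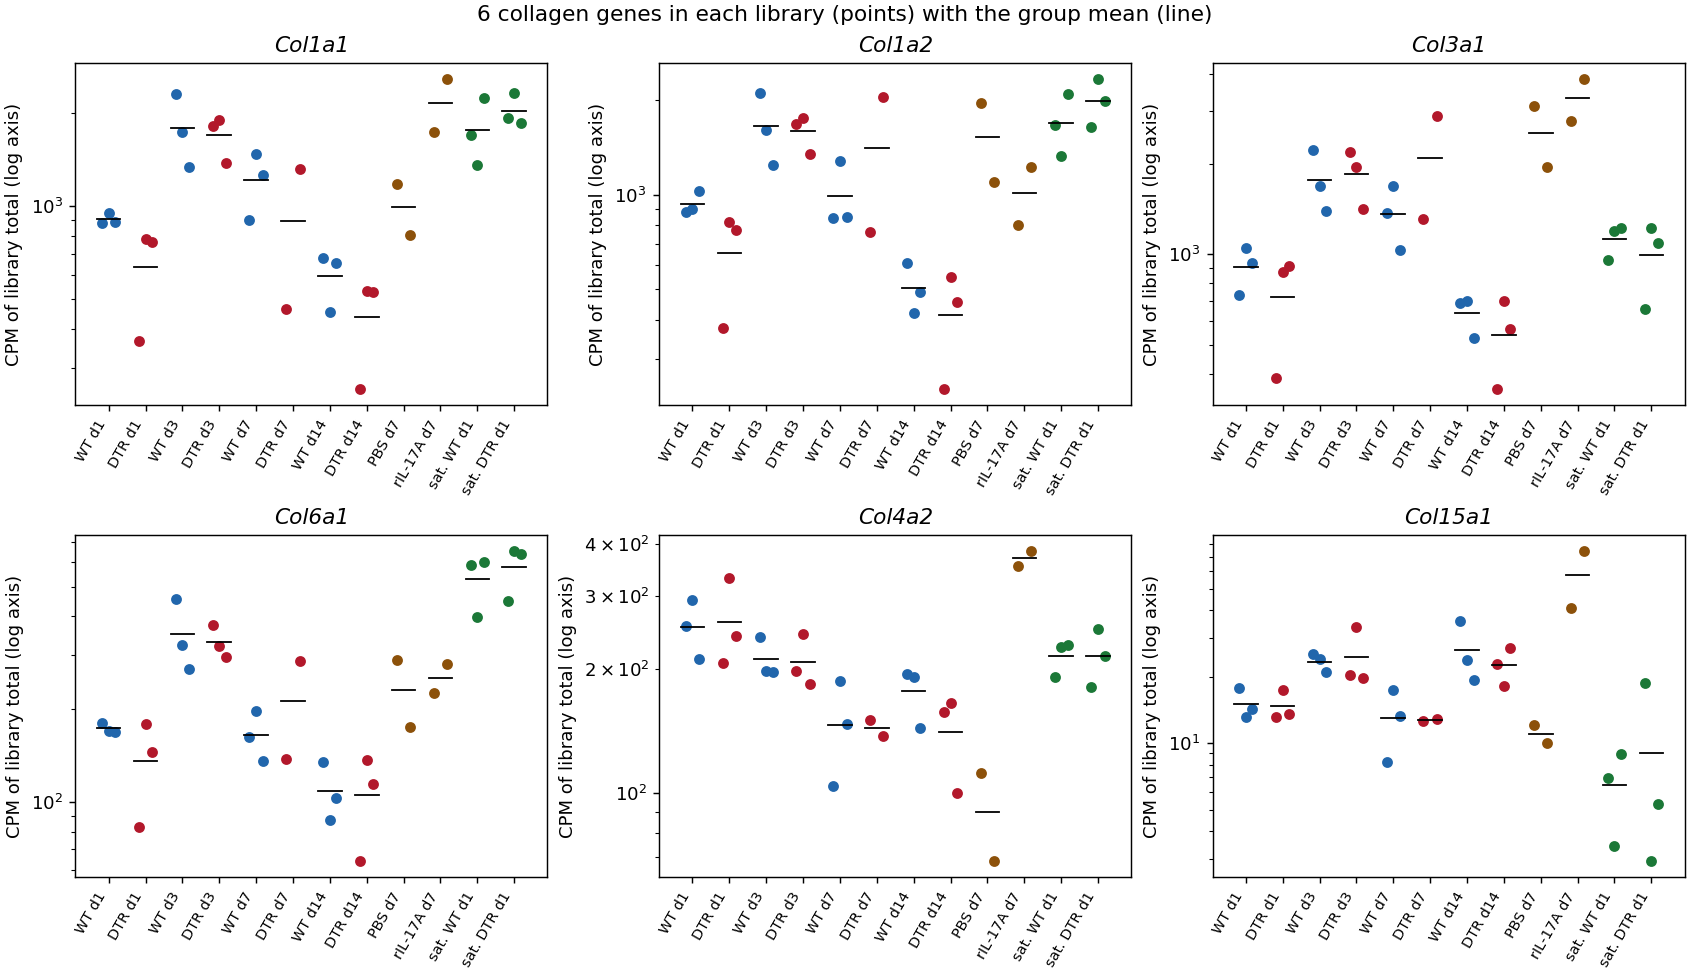
Level of 6 collagen genes in every muscle and satellite cell library (CPM of the library total, log axis), grouped by genotype, treatment and day (d), with sat. for satellite cells; the line is the group mean. Col1a1 lies between 1339 and 2309 CPM in WT muscle at day 3 and between 453 and 677 at day 14, and Col4a2 lies at 355 and 386 CPM with rIL-17A against 68.2 and 111.5 with PBS.

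Over the 4 days 23 of 42 tested collagens changed in WT muscle, near the background of 53.7% of all tested genes called. In DTR muscle 27 of 42 changed (56.2% of all genes), among them all 23 of the WT ones. Col1a1, the main chain of type I collagen (chromosome 11, 94936224 to 94953042 in GRCm38), stood at 879.8, 948 and 889.9 CPM in the 3 WT libraries of day 1 and at 2309, 1737 and 1339 at day 3. Col1a1 then stood at 899, 1471 and 1264 CPM (day 7) before 677, 453 and 652 (day 14). All day 3 libraries lay above all day 1 libraries, and all day 14 libraries below every other day. Col3a1, the fibrillar chain of early repair tissue (chromosome 1, 45311538 to 45349706), stood at 731, 1052 and 934 CPM on day 1 and 2226, 1688 and 1399 on day 3. Its WT libraries held 1373, 1684 and 1031 CPM on day 7, then 689.7, 699 and 526.5 on day 14. Its order over the days was that of Col1a1, with day 7 overlapping days 1 and 3.

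From day 1 to day 3, 6 collagens were called in WT muscle (18.9% of all genes called), 3 up (9.58% of genes) and 3 down (9.36%). Col5a1 (log2 change 0.92 ± 0.27) and Col5a2 (0.92 ± 0.295), which regulate the start and width of type I fibrils, and Col6a2 (0.715 ± 0.23), a chain of the type VI filaments around cells, rose. Col4a2 of the basement membrane (−0.65 ± 0.21), Col7a1, which forms anchoring fibrils (−1.14 ± 0.36), and Col8a2, a network chain (−1.38 ± 0.46), fell. Col1a1 (0.585 ± 0.30, adjusted p = 0.2013 by edgeR) and Col3a1 (0.57 ± 0.296, adjusted p = 0.1965) did not pass. In DTR muscle 8 collagens rose and 0 fell (14.3% of all genes called, 8.48% as higher and 5.85% as lower), all fibrillar or type VI. They were Col1a1 (1.20 ± 0.31), Col1a2 (1.07 ± 0.31), Col3a1 (1.14 ± 0.30), Col5a1, Col5a2, Col5a3, Col6a1 and Col6a2. Both genotypes thus had Col5a1, Col5a2 and Col6a2 higher at day 3. None of the 6 WT calls held under every alternative, with 1 call left without WT replicate 1 of day 1 and 2 without WT replicate 1 of day 3. In DTR muscle 5 calls were left without replicate 1 of day 1, whose collagen sum of 1972 CPM lay below the 3653 and 3982 of the other 2 libraries. With all DTR libraries, DESeq2 called 8 collagens higher and 2 lower, and the fit with the GC and length offset 8 and 1. With library size alone as the scale, which moves the median of all genes by 0.40 in WT muscle, 8 WT collagens were called higher and 0 lower, and with the offset for GC content and length 5 and 0.

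From day 3 to day 7 in WT muscle 7 of 42 collagens rose and 1 fell (36.9% of all genes called, 17.9% as higher and 19% as lower), so the share that rose was near that of all genes. Col6a6, a further type VI chain, went from 1.08, 0.480 and 0.838 CPM to 5.97, 6.98 and 6.21 (log2 change 3.70 ± 0.50). Col22a1, known from the myotendinous junction, went from 2.31, 5.76 and 4.47 CPM to 4.835, 16.3 and 20.9 (2.53 ± 0.44), so that 1 library of day 7 overlapped day 3. Col24a1 (2.93 ± 0.495), Col26a1 (3.44 ± 0.715), the transmembrane Col23a1 (2.66 ± 0.61), Col7a1 (1.96 ± 0.35) and Col4a1 (0.61 ± 0.23) rose too. Col8a1, a network chain, fell from 78.6, 62.4 and 55.3 CPM to 17.2, 14.2 and 13.7 (−1.32 ± 0.26). The abundant chains did not pass, with Col1a1 at 0.22 ± 0.30 and Col3a1 at 0.44 ± 0.296. In DTR muscle 8 rose and 0 fell (35.5% of all genes called, 17.1% as higher and 18.4% as lower), with Col6a6 (3.00 ± 0.45), Col26a1 (2.81 ± 0.72), Col7a1 (1.77 ± 0.37) and Col23a1 (2.22 ± 0.625) shared with WT muscle. The others were Col3a1 (1.14 ± 0.325), Col5a1, Col6a3 and Col8a2.

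The count of calls at this step changed with the scale. The fibre gene Acta1 took 10740 to 30310 CPM in WT muscle at day 3 and 58460 to 84400 at day 7, and without TMM scaling the median of all genes fell by 0.74 in WT and 1.20 in DTR muscle. On library size alone 6 collagens were higher and 9 lower at day 7 in WT muscle, and 1 higher and 9 lower in DTR muscle. With the GC and length offset the counts were 12 and 1, and 16 and 0, and DESeq2 gave 8 and 1 in DTR muscle. In CPM of the library total the Col1a1 and Col3a1 libraries of day 7 overlapped those of day 3 in WT muscle. Of the 8 myofibre markers 8 rose at this step in WT muscle (summed level 22110 to 70270 CPM on day 3 and 143400 to 170300 on day 7) and of the 5 macrophage markers 5 fell (2076 to 3438 and 106 to 195 CPM). Their part in the collagen changes was not tested. Of the 8 WT calls 7 held under every alternative, and of the 8 DTR calls Col6a6 alone did. Without DTR replicate 2 of day 7 Col3a1, Col5a1, Col6a3, Col8a2 and Col23a1 lost their calls, and 3 collagens were called higher and 4 lower.

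From day 7 to day 14 most abundant fibrillar and type VI collagens fell. In WT muscle 10 of 42 collagens fell and 2 rose (17.3% of all genes called, 13.2% as lower and 4.14% as higher). The median log2 change of the 11 fibrillar collagens was −1.10, against −0.03 over all genes. Of these 11, 6 fell: Col1a1 (−1.15 ± 0.31), Col1a2 (−1.11 ± 0.31), Col3a1 (−1.24 ± 0.30), Col5a1 (−1.10 ± 0.27), Col5a2 (−1.61 ± 0.31) and Col5a3 (−1.11 ± 0.26). Col5a2 stood at 167, 163.5 and 98.9 CPM at day 7 and at 49.3, 61.3 and 45.55 at day 14, with no overlap. Of the type VI chains Col6a1 (−0.76 ± 0.265), Col6a2 (−0.75 ± 0.24) and Col6a3 (−1.17 ± 0.29) fell. The vessel-associated Col18a1, source of endostatin, fell (−0.94 ± 0.28), while its relative Col15a1 rose from 8.25, 17.4 and 13.3 CPM to 35.8, 23.7 and 19.4 (0.89 ± 0.28). The fibril-associated Col20a1 rose as well (2.13 ± 0.72), at 0.142, 2.26 and 1.32 CPM against 6.25, 3.54 and 8.50. Col4a1 (−0.18 ± 0.23) and Col4a2 (0.15 ± 0.21) did not pass. Of 5 macrophage markers 5 fell with them (106 to 195 CPM in sum on day 7 and 35.97 to 53.1 on day 14), of 8 fibro-adipogenic markers 1 fell (514 to 1022 and 619.9 to 996 CPM) and of 5 tenocyte markers 1 fell (359 to 459 and 189 to 343 CPM), and their part was not tested. Col3a1, Col5a2, Col5a3 and Col6a3 kept their calls under every alternative. The counts higher and lower were 2 and 5 on library size alone, 4 and 7 with DESeq2, 2 and 7 with DESeq2's size factors in edgeR and 0 and 10 with the GC and length offset. Without WT replicate 2 of day 7, 6 collagens were called, and without WT replicate 1 or 3 of day 14, 7.

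In DTR muscle 15 of 42 collagens fell and 7 rose over the same step (34.4% of all genes called, 19.7% as lower and 14.6% as higher). The 6 fibrillar and 3 type VI chains that fell in WT muscle fell here too, Col3a1 by 2.29 ± 0.33 and Col5a1 by 2.44 ± 0.30 on the log2 scale. The fibril-associated Col12a1 (−1.80 ± 0.41), Col14a1 (−1.60 ± 0.40) and Col16a1, and Col6a6, Col8a2 and Col18a1, also fell. The collagens that rose were low: Col4a3, Col4a4, Col4a6, Col6a4, Col19a1, Col24a1 and Col25a1. Col25a1, a transmembrane collagen needed by motor axons, stood at 0.105 and 0.638 CPM at day 7 and at 4.20, 2.95 and 5.74 at day 14 (3.135 ± 0.88). Col4a6 and Col6a4 had 1 count each at day 7, so no fold is given. Olfactory and vomeronasal genes moved with these rises, from 92.1 to 146 CPM in DTR libraries at day 7 to 1439 to 1997 at day 14, and from 267 to 1383 to 1578 to 1844 in WT libraries. Their part in the rises was not tested. Without DTR replicate 2 of day 7, 11 collagens were called, and 12 of the 22 calls were lost. That library had a collagen sum of 8168 CPM and the other DTR library of day 7 had 3534.

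**Figure D2:**
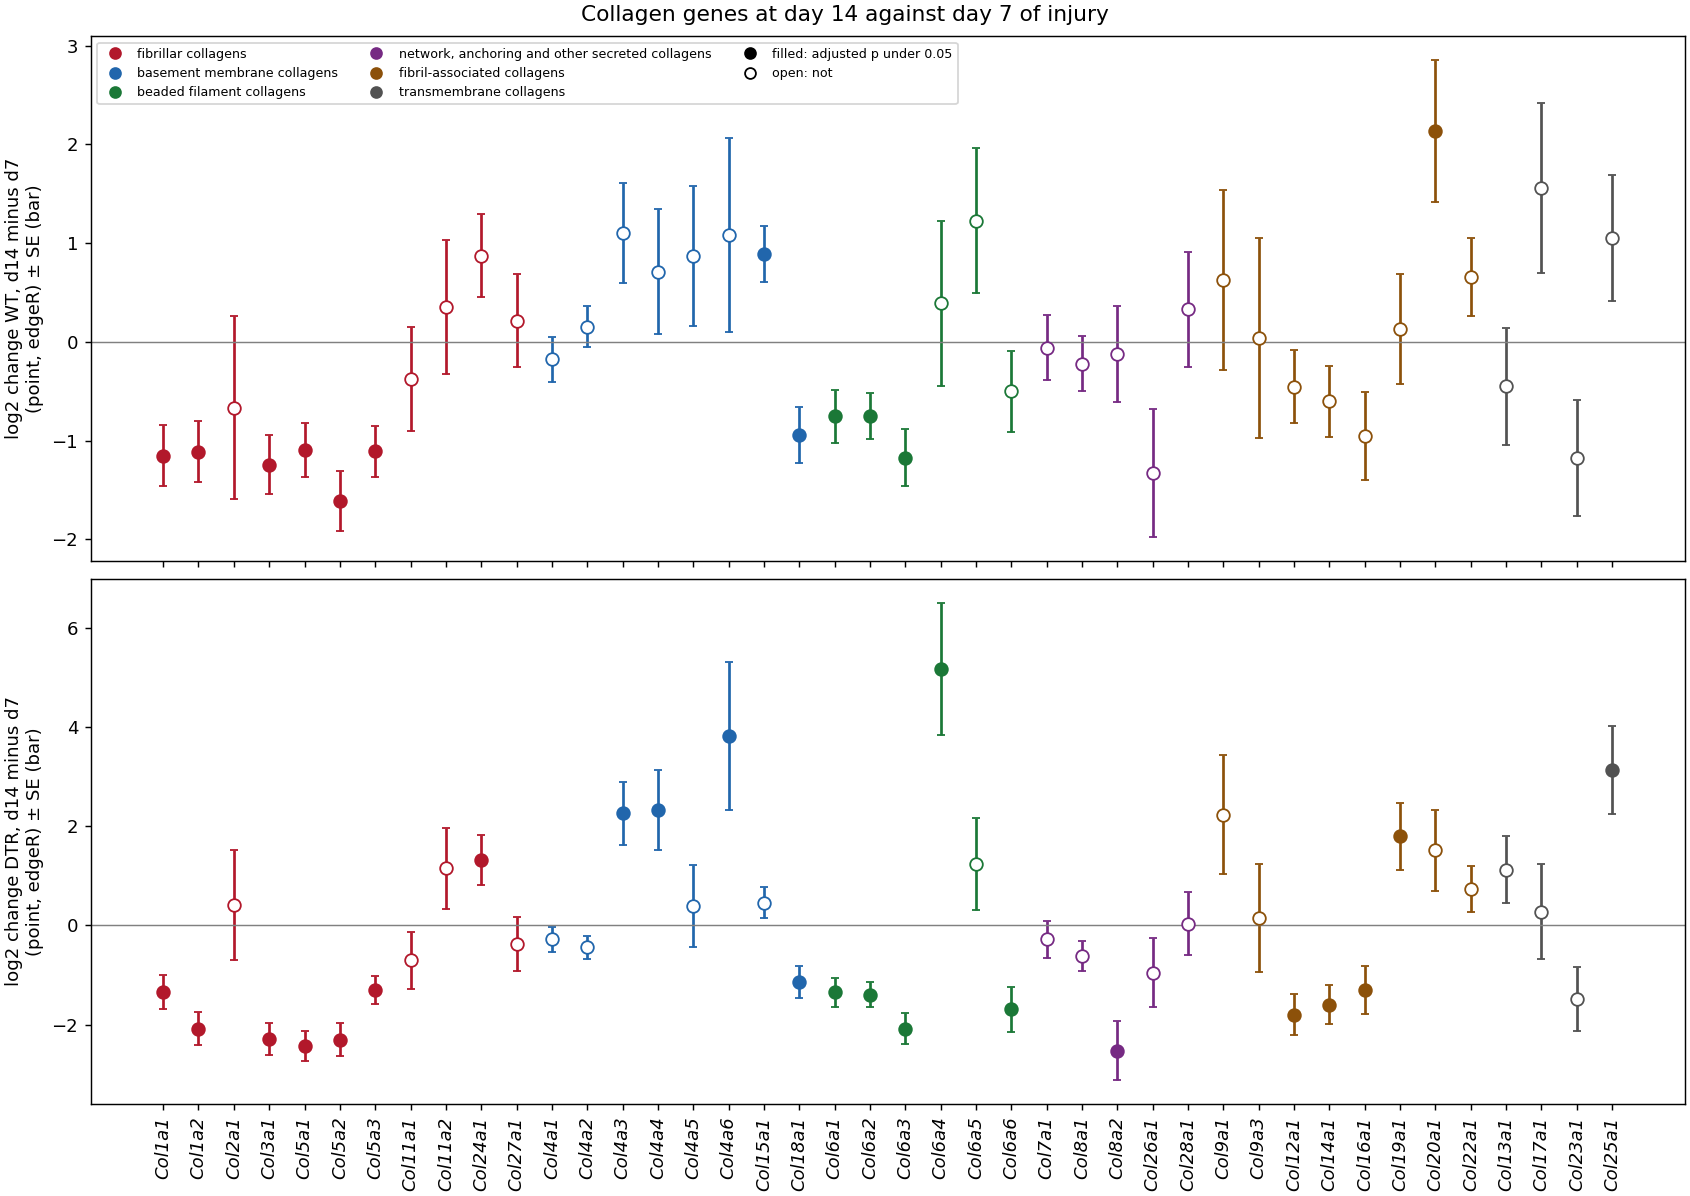
Log2 change of each tested collagen from day 7 to day 14 (edgeR, bars are SE) in WT (upper) and DTR muscle (lower, wider axis), ordered and coloured by class, filled where called. The abundant fibrillar and type VI collagens lie below 0 in both, while Col4a6 and Col6a4 of DTR muscle, fitted on 1 count each at day 7, lie far above 0.

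No collagen passed between the libraries labelled DTR and WT muscle on any day. At day 1, 0 of 42 were called (0% of all genes called, 5 collagens at an unadjusted p under 0.05, DESeq2 0) and at day 3 0 of 42 (0%, 2 unadjusted, DESeq2 0). At day 14 it was 0 of 42 (0.0767% of all genes called, 0.0383% as higher and 0.0383% as lower, 1 unadjusted, DESeq2 0). At day 1 Col1a1 stood at 366.0, 782 and 763.5 CPM in the libraries labelled DTR, all below the WT libraries (−0.66 ± 0.305, adjusted p = 0.9981 by edgeR). Col1a2 (−0.67 ± 0.30) and Col5a1 (−0.62 ± 0.27) lay lower to a like extent, and the change of all genes correlated with GC content at Spearman rho −0.35 over 17981 genes. At day 3 the smallest p was that of Col6a6, at 3.95, 3.74 and 1.82 CPM in DTR and 1.08, 0.480 and 0.838 in WT muscle (adjusted p = 0.4369 by edgeR). At day 14 it was that of Col8a2, at 0.6995, 2.53 and 1.025 CPM in DTR and 2.00, 4.905 and 4.25 in WT muscle (adjusted p = 0.7257 by edgeR).

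At day 7, where 2.01% of all genes were called (0.641% higher and 1.37% lower in DTR), 0 of 42 collagens passed, but 15 had an unadjusted p under 0.05 and DESeq2 called 2. Col6a3, the large chain of type VI collagen (chromosome 1, 90765923 to 90843971), stood at 119 and 264 CPM in DTR and at 121, 119 and 81.3 in WT muscle (1.01 ± 0.31, adjusted p = 0.0738 by edgeR). The groups overlapped, with DTR replicate 2 far above the rest. DESeq2 called Col6a3 higher and Col25a1 lower (0.105 and 0.638 CPM against 1.71, 2.36 and 5.15), and edgeR without a filter called Col6a3 and Col14a1 higher. Olfactory and vomeronasal genes lay lower in the same direction as Col25a1, at 146 and 92.1 CPM in DTR against 267, 543 and 1383 in WT muscle, and their part was not tested. Without DTR replicate 1, 5 collagens were called higher (Col5a1, Col6a2, Col6a3, Col12a1 and Col14a1), and without WT replicate 1, 3 were called, among them Col6a3 higher and Col25a1 lower. Col6a6 stood at 10.05 and 15.5 CPM in DTR and 5.97, 6.98 and 6.21 in WT muscle without overlap (1.21 ± 0.42, adjusted p = 0.1067 by edgeR). The test over genotype and day together called 0 of 42 collagens (0.608% of all genes called, 11 unadjusted, DESeq2 2). Of simulated 4-fold changes in the day 7 comparison, 63 of 100 were recovered, and 20 of 100 at 2-fold, so that changes of this size could be missed.

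The chains of type I collagen, which wind into one helix, did not keep a fixed ratio. Col1a1 counts divided by Col1a2 counts gave 0.866 to 1.48 (median 1.06) over 27 muscle and satellite cell libraries. The DTR libraries of day 7 had ratios of 0.612 and 0.644, and the PBS libraries 0.606 and 0.738. In rIL-17A muscle it was 2.17 and 2.105. All 6 of these libraries lay outside the range of the other 27. Their groups were set apart on these same ratios, so this is a description and not a test. In DTR muscle at day 7 Col1a1 stood at 465 and 1322 CPM and Col1a2 at 759 and 2053, while the WT libraries of that day had ratios of 1.06, 1.15 and 1.48. The ratio of Col3a1 to Col1a1 counts was 2.18 to 2.82 in DTR and 2.42 to 2.65 in PBS muscle at day 7, above the 0.816 to 1.53 of WT muscle. In rIL-17A muscle it was 1.49 and 1.60, with 1 library inside the WT range and 1 above it. Col3a1 counts divided by Col1a2 counts gave 3.465 and 3.13 in rIL-17A muscle, against 1.60 and 1.79 with PBS. The transcripts of Col1a1, Col1a2 and Col3a1 are 58.9%, 55.7% and 52.5% G and C. The PBS and rIL-17A groups are wild-type mice for which the labels name no diphtheria toxin.

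**Figure D3:**
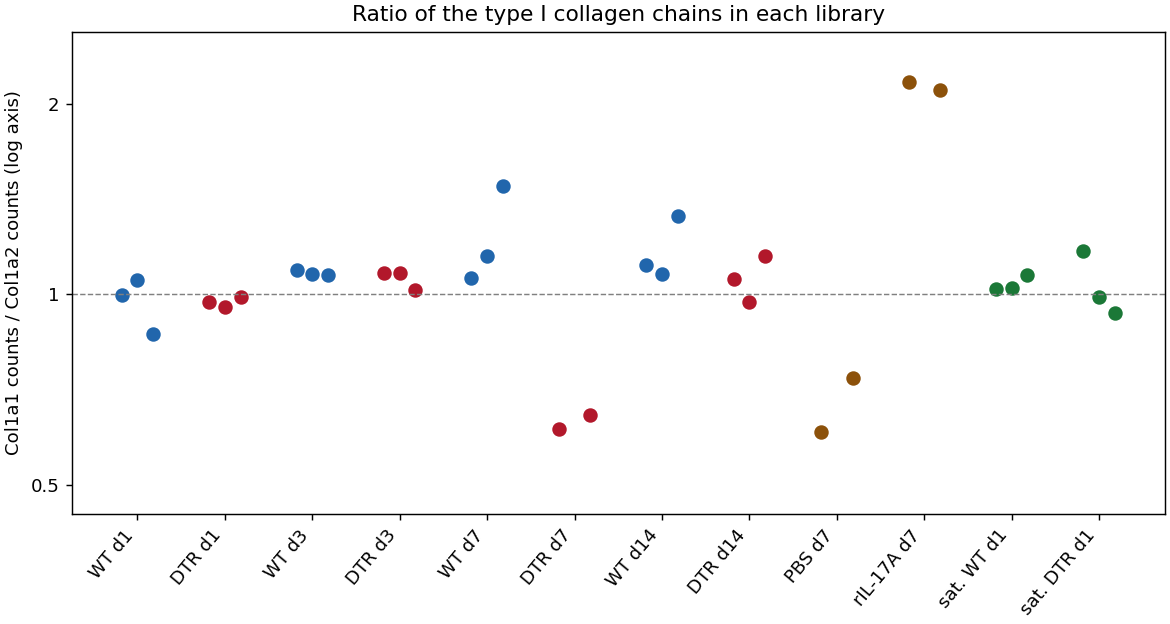
Col1a1 counts divided by Col1a2 counts in each muscle and satellite cell (sat.) library on a log axis, 1 point per library, with a dashed line at 1. The 2 DTR and 2 PBS libraries of day 7 lie between 0.606 and 0.738 and the 2 rIL-17A libraries above 2.1.

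With rIL-17A at day 7, 10 of 33 tested collagens rose against PBS and 3 fell (34.1% of all genes called, 18.1% as higher and 16.1% as lower). The basement membrane collagens had the most calls, with 5 of 6 tested higher and a median log2 change of 1.67, against 0.05 over all genes. With an offset for GC content and length 4 of these 5 lost their call (Col4a1, Col4a2, Col4a3 and Col18a1), and Col15a1 kept it. Col4a2 (chromosome 8, 11312805 to 11449287) stood at 355 and 386 CPM with rIL-17A and at 111.5 and 68.2 with PBS (log2 change 1.90 ± 0.23, adjusted p = 0.000153 by edgeR). Its partner chain Col4a1, whose gene start overlaps that of Col4a2 head to head (chromosome 8, 11198423 to 11312826), stood at 217 and 258.5 against 103 and 83.4 CPM (1.205 ± 0.20). Both rIL-17A libraries lay above both PBS libraries for each chain. Col15a1, which links basement membrane to fibrils (chromosome 4), stood at 41.2 and 74.4 against 12.05 and 10.01 CPM (2.22 ± 0.31, adjusted p = 0.000316 by edgeR). Col18a1 stood at 60.9 and 61.7 against 28.9 and 12.2 CPM (1.44 ± 0.33), and Col4a3, a chain of specialised basement membranes, at 4.815 and 2.92 against 0.126 and 0.572 CPM (3.30 ± 0.999). The PBS libraries held 1 and 4 counts of Col4a3.

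Among the fibrillar collagens 3 rose and 1 fell. Col1a1 stood at 1743 and 2588 CPM with rIL-17A and 1182 and 809 with PBS (0.97 ± 0.23, adjusted p = 0.00723 by edgeR). Col1a2 stood at 804 and 1229 against 1953 and 1096 CPM, with overlap (−0.73 ± 0.26, adjusted p = 0.045 by edgeR). Col5a3 (0.785 ± 0.25) and the low Col24a1, at 10.7 and 13.97 against 1.63 and 3.15 CPM (2.20 ± 0.53), rose. Col3a1, at 2785 and 3851 against 3128 and 1958 CPM, did not pass (0.24 ± 0.24). Of the other classes Col7a1 (1.22 ± 0.40) and Col19a1 (2.09 ± 0.74), a fibril-associated collagen, rose, and Col6a3 (−0.79 ± 0.26) and Col6a6 (−1.255 ± 0.43) fell. Col6a1 did not pass, at 226 and 279.5 against 288 and 175 CPM. Col5a1, Col5a2, Col11a1, Col8a1, Col12a1, Col14a1, Col13a1 and Col22a1 did not pass either.

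Several measures moved with these changes. Endothelial markers rose in 3 of 5 tested genes, with the summed level of all 5 at 295 to 318.5 CPM against 154.5 to 172 with PBS. Of 8 fibro-adipogenic markers 3 fell and 1 rose (562 to 675 against 691 to 877 CPM), and of 5 tenocyte markers 2 fell (375 to 510 against 503 to 839 CPM). Of 5 macrophage markers 3 fell (147 to 211 against 274.5 to 313 CPM). Of 8 myofibre markers 3 fell and 2 rose, with a median log2 change of 0.25 (144000 to 156000 against 183600 to 193500 CPM). Among them Acta1 fell from 97310 and 102300 CPM to 56390 and 54510. Olfactory and vomeronasal genes stood at 21.28 and 25.85 CPM with rIL-17A against 12.05 and 14.59 with PBS. They lay higher in the same direction as the low Col4a3, Col19a1 and Col24a1. The part of these markers and genes in the collagen changes was not tested. The log2 change of collagens correlated with the GC content of their transcripts at Spearman rho 0.34 over 33 genes, which share the same 4 libraries, and at 0.09 over 12742 genes. With an offset that removes each library's trend over GC content and length, the calls turned from 10 higher and 3 lower to 2 higher and 7 lower. Under that offset Col15a1 (1.41) and Col24a1 (1.64) kept their rise, while Col4a2 stood at 0.58 (adjusted p = 0.0897 by edgeR) and Col4a1 at 0.16, and Col1a1 turned to −0.155. Col1a2 (−1.485), Col6a3 (−1.76) and Col6a6 (−1.92) kept their fall, joined by 4 others, Col5a1, Col6a1 and Col12a1 among them. Col15a1 alone kept its call under every alternative tried. On library size alone 10 rose and 0 fell, and without rIL-17A replicate 1 or 3 the calls numbered 7 and 6.

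**Figure D4:**
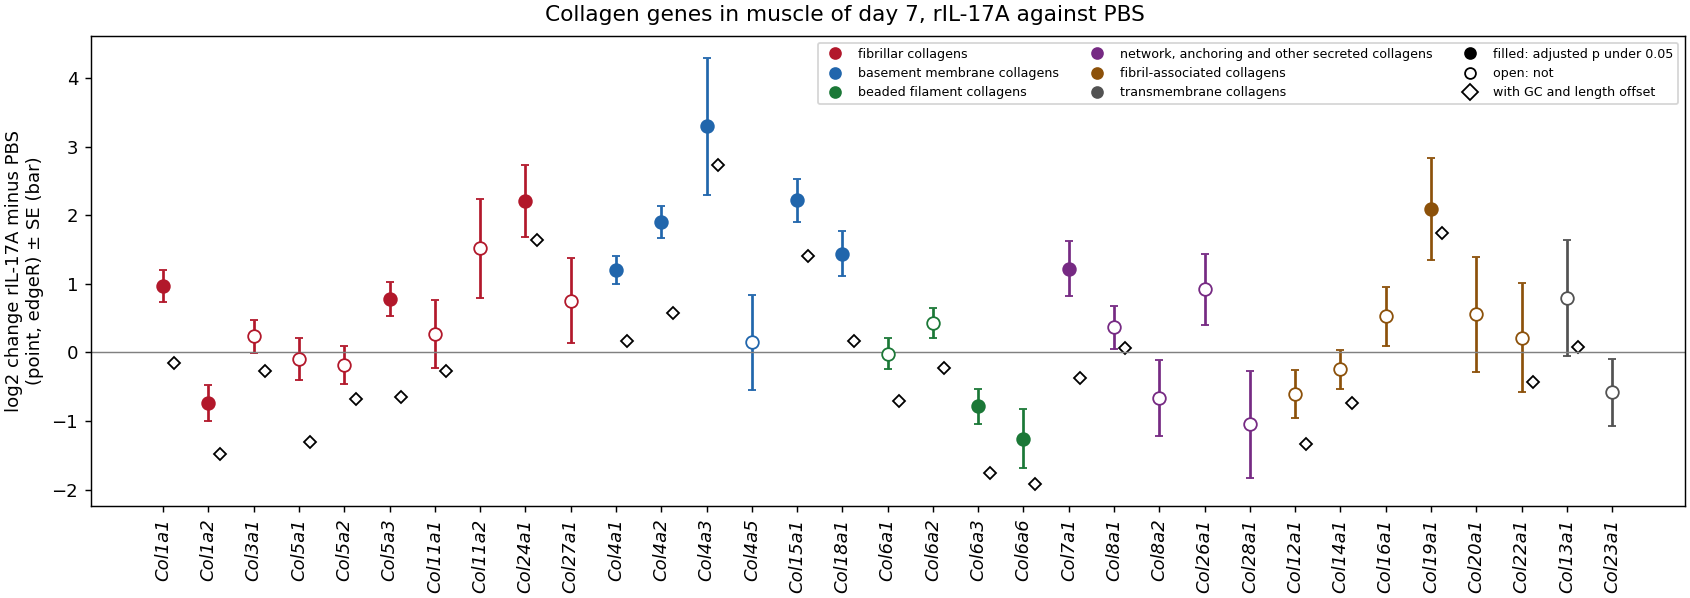
Log2 change of each tested collagen in muscle of day 7, rIL-17A against PBS (edgeR, bars are SE), coloured by class, filled where called; diamonds are values with the GC and length offset, drawn for 24 of the 33 genes. Col15a1 and Col24a1 stay above 1 with the offset and keep their call. Col4a3 and Col19a1 stay above 1 but lose their call, while Col4a1, Col18a1 and Col1a1 move to near 0.

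Genes for proteins that handle collagen were read against the same shares of all genes with rIL-17A (34.1% called, 18.1% as higher and 16.1% as lower). Of 20 folding and hydroxylation genes 2 rose and 3 fell, below the share of all genes called. Serpinh1, the collagen chaperone, stood at 189 and 248.5 against 39.2 and 49.6 CPM (2.15 ± 0.22), and the glycosyltransferase Colgalt1 rose (1.46 ± 0.24), while P3h3 (−1.785 ± 0.45) and Ppib (−0.94 ± 0.30), both of prolyl modification, fell. Of 12 processing and crosslinking genes 3 rose and 0 fell, also below that share: the protease Furin (2.45 ± 0.45), Tgm2 (0.98 ± 0.23) and Loxl4 (3.35 ± 1.20). Of 18 breakdown genes 7 fell and 2 rose. Mmp3 (−1.99 ± 0.27), Ctsk (−1.63 ± 0.23) and Ctsl (−1.24 ± 0.20), which cut matrix or collagen, fell, and the inhibitor Timp3 rose (2.10 ± 0.30). Of 25 fibril and basement membrane partners 11 fell and 4 rose, with Lum (−1.73 ± 0.21) and Aspn (−1.80 ± 0.28), small proteoglycans of fibrils, lower and Hspg2, the basement membrane proteoglycan perlecan, higher (3.94 ± 0.30). Tnxb (2.44 ± 0.44), which crosslinks fibrils, rose. Of 7 receptors 2 rose, Adgrg1 (3.40 ± 0.43) and Ddr1 (2.01 ± 0.39). Of 11 TGF-beta genes Ltbp4 (1.84 ± 0.23) and Tgfbr1 (1.16 ± 0.34) rose and Ltbp3 (−1.25 ± 0.29) fell. Calls in either direction in these last lists were also below the share of all genes called.

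The same lists were read over the injury course. From day 3 to day 7 in WT muscle, where 36.9% of all genes were called and 19% as lower, 10 of 20 folding genes fell and 0 rose (median −0.92), led by Ppib (−1.55 ± 0.21), Plod3 (−1.49 ± 0.23), Crtap (−1.42 ± 0.22) and Serpinh1 (−1.43 ± 0.23). Of 15 processing genes 9 fell and 0 rose, among them Adamts14 (−2.51 ± 0.51), Furin (−1.05 ± 0.23), Lox (−1.52 ± 0.33) and Loxl3 (−2.19 ± 0.48). Over that step 7 of 42 collagens rose and 1 fell on the same scale, where 17.9% of all genes were called as higher. Col1a1 and Col3a1 did not pass, and on library size alone 6 collagens were higher and 9 lower. From day 7 to day 14 in WT muscle, where 17.3% of all genes were called, 13.2% as lower and 4.14% as higher, 2 of 20 folding genes fell, Ppib (−0.98 ± 0.23) and P3h3 (−1.55 ± 0.41), and 9 of 21 breakdown genes fell with 2 rising, Timp1 (−1.94 ± 0.33), Fap (−1.78 ± 0.33) and Ctsk (−1.87 ± 0.37) lower and Timp3 (1.46 ± 0.25) higher. Of 25 partners 7 fell and 3 rose, with Hspg2 (2.01 ± 0.21), Lama5 (1.14 ± 0.29) and Tnxb (1.64 ± 0.42) higher and Lum (−1.81 ± 0.36) lower. In DTR (n = 2) against WT muscle at day 7, 2.01% of all genes were called, 0.641% as higher and 1.37% as lower. Of 20 folding genes 1 was higher, Creb3l1, a transcription factor of collagen secretion (1.67 ± 0.43). Of 15 processing genes 1 was lower, Furin (−1.84 ± 0.28), and of 25 partners 1 was higher, the laminin chain Lamb1 (1.17 ± 0.26). The calls numbered 0 of 21 breakdown genes, 0 of 10 receptors and 0 of 12 TGF-beta genes.

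Satellite cells sorted at day 1 carried collagen RNA at levels above those of whole muscle, with a collagen sum of 6136 to 8402 CPM in WT cells against 3824 to 4304 in WT muscle. Sorted cells and extracted tissue also differ in preparation. Of 30 tested collagens 14 were higher and 5 lower in the cells (60.5% of all genes called, 28.2% as higher and 32.3% as lower). Col17a1, a transmembrane collagen known from epithelia, stood at 34.55, 35.7 and 27.5 CPM in WT satellite cells and at 1.805, 1.04 and 0.871 in WT muscle (log2 change 4.32 ± 0.35, adjusted p = 1.352e-07 by edgeR). Col19a1 stood at 37.1, 39.6 and 37.65 against 4.29, 1.74 and 3.83 CPM (3.13 ± 0.33), and Col26a1 at 8.96, 14.3 and 14.1 against 0.451, 0.521 and 0.697 CPM (4.02 ± 0.49). Each of these low collagens was separated from muscle by all libraries. Col5a2, at 523, 497 and 589 against 116, 146 and 113 CPM (1.70 ± 0.17), Col5a3 (1.415 ± 0.20), Col6a1 (1.20 ± 0.20) and Col6a2 (1.115 ± 0.21) were higher among the abundant chains. Col8a1 (0.88 ± 0.19), Col12a1 (0.76 ± 0.195), Col11a1 (0.865 ± 0.33) and Col1a1 (0.565 ± 0.21) were higher as well, and Col3a1 did not pass (−0.09 ± 0.18). Of these 19, 15 kept their call under every alternative.

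The collagens that were lower in the cells were Col14a1, a fibril-associated collagen of fibroblasts, at 4.94, 7.455 and 0.797 CPM against 43.1, 40.65 and 49.8 (−3.75 ± 0.42), Col7a1 (−2.48 ± 0.44), Col15a1 (−1.63 ± 0.37), Col6a3 (−0.94 ± 0.16) and Col4a2 (−0.64 ± 0.17). Col4a2 lost its call on library size alone. The median log2 change of all genes in this comparison was 0.34 on that scale and −0.06 with TMM scaling. Col6a3 counts were 0.098 to 0.164 of Col6a1 counts in WT satellite cells and 0.475 to 0.61 in WT muscle of the day. The sorted cells were checked against markers. Of 8 satellite cell markers 7 were higher in them and 1 lower, with Pax7 at 23.9 to 37.1 CPM against 1.56 to 1.74. The endothelial Pecam1 stood at 0.366 to 0.996 CPM against 110 to 156. The 6 pericyte and smooth muscle markers summed to 398 to 646 CPM in the cells and 268 to 362 in muscle. Of 8 fibro-adipogenic markers 5 were lower in the cells and 0 higher (median log2 change −0.94), with the summed level of all 8 at 2308 to 2923 CPM in the cells and 2342 to 2862 in muscle. One of the 5, the fibroblast gene Pdgfra (−0.56 ± 0.21), stood at 37.5 to 55.6 CPM in the cells and 38.6 to 54.7 in muscle. Dcn, a proteoglycan gene of fibroblasts that is not in that list, stood at 2274 to 3136 against 779 to 1020.0 CPM. Of 5 tenocyte markers 4 were higher in the cells, with Tnmd at 28.3 to 52.65 against 11.3 to 21.4 CPM. Another tendon gene, Thbs4, stood at 10340 to 13400 against 910.5 to 1069 CPM. Their part in the fibrillar collagen levels of the sorted libraries was not tested. Against 60.5% of all genes called (28.2% as higher and 32.3% as lower), of 19 folding genes 11 were higher and 3 lower in the cells, with the prolyl isomerase Fkbp10 (1.85 ± 0.19), P3h2 (2.41 ± 0.32) and Serpinh1 (1.29 ± 0.19) higher. Of 14 processing genes 6 were higher and 3 lower, close to the share of all genes called, with the crosslinking enzyme Lox (2.37 ± 0.17) and Adamts14 (4.05 ± 0.38) higher and Tgm2 (−2.48 ± 0.22) and Adamts2 (−2.20 ± 0.33) lower.

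**Figure D5:**
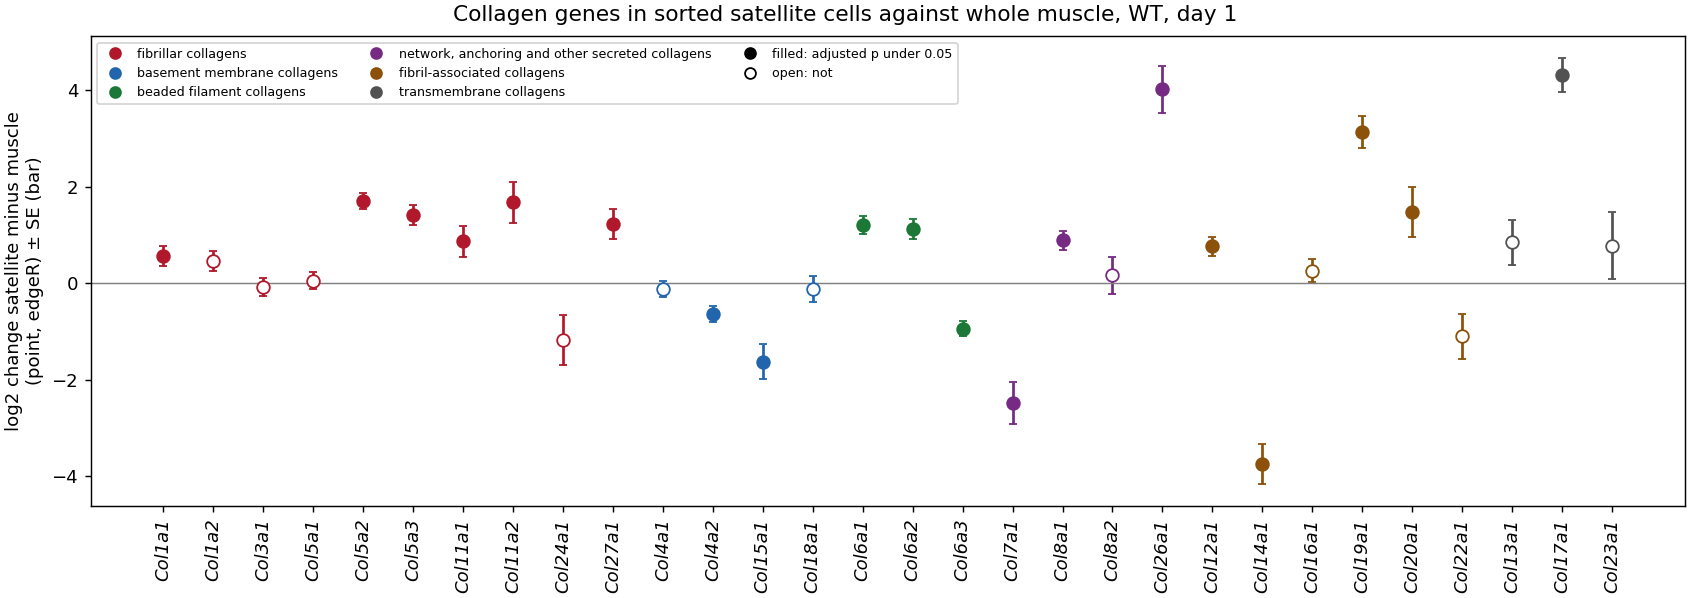
Log2 change of each tested collagen, WT satellite cells against WT whole muscle at day 1 (edgeR, bars are SE), coloured by class, filled where called. Col17a1, Col26a1 and Col19a1 lie above 3 and Col14a1 below −3.

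In satellite cells of DTR against WT mice 0 of 31 collagens passed (0% of all genes called, 8 collagens at an unadjusted p under 0.05, DESeq2 0). The smallest p-values were those of Col22a1, at 16.85, 16.05 and 5.81 against 4.02, 2.29 and 4.98 CPM (1.75 ± 0.44, adjusted p = 0.771 by edgeR), Col12a1, at 126, 100.1 and 109.6 against 88.7, 71.3 and 57.2 CPM (0.62 ± 0.17), and Col6a3 (0.54 ± 0.19). In each of these the DTR libraries all lay above the WT libraries. These genes were picked by their p-values, so that separation is a description and not a test. Fibre RNA was uneven in this comparison: DTR replicate 1 held 3340 CPM of summed myofibre markers, against 32.7 to 37.5 in WT cells. The log2 change of all genes correlated with GC content at rho −0.33 over 11935 genes.

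Vγ6 cells held little collagen RNA. All 44 genes together took 20.5 to 60.4 CPM in cells from injured muscle and 23.4 to 34.1 CPM in cells from colon. Only Col1a2, Col4a4, Col9a3 and Col10a1 had enough counts to test, and 0 of 4 passed (24.5% of all genes called, 0 at an unadjusted p under 0.05, DESeq2 0). Col9a3 overlaps Tcfl5 and Col10a1 overlaps Nt5dc1 on the opposite strand. The strand setting of the counting is not known, so the source of these low counts is uncertain. Without colon replicate 3, or without any 1 of the muscle replicates, 1 collagen was called lower in muscle cells. Untested low collagens lay apart in both directions. Col3a1 had 21, 34 and 9 counts in colon cells and 3, 2 and 0 in muscle cells. Col18a1 had 0, 2 and 2 counts in colon cells and 10, 15 and 9 in muscle cells. Col1a1 stood at 0, 0.554 and 1.58 CPM in muscle cells and 0.512, 1.57 and 1.07 in colon cells, against 1339 to 2309 CPM in whole WT muscle of day 3.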

How the data were processed

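The values are whole-number counts per gene deposited by the authors as 1 table. Per the submitters' processing notes, reads went through STAR 2.7.3a and featureCounts (Subread 2.0.0) on the genome build mm10. For the annotation, strand setting and reads that match several genes no source used here says what was done, so counts of overlapping genes such as Col4a1 and Col4a2 are uncertain at the overlap. Groups follow the labels, which describe 2 to 3 independent biological replicates.

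The collagens, gene lists and tests were chosen with earlier results of these data known. CPM divides a gene's count by its library's total count. Tests used edgeR 4.0.16 (R 4.3.3, limma 3.58.1) with TMM scaling, robust quasi-likelihood fits, filterByExpr (minimum count 10, minimum total 15) and Benjamini-Hochberg adjustment over all tested genes. The time course libraries shared 1 fit, and the other comparisons were fitted on their own groups. Alternatives were DESeq2 1.42.0, no filter, library size alone, edgeR with the size factors of DESeq2, an offset for GC content and length, a replicate block and leaving out each library. An alternative without the 2 libraries with the most genes detected was added after seeing the data. Transcript length and GC content came from the longest transcript in GENCODE M21 (GRCm38). Genes were named by a rule: 20 main collagens in muscle, the 8 smallest p-values past the threshold in each comparison (3 where none passed) and up to 4 genes per pathway list. Other collagens were named after their values were seen. The fits were tested on simulated data with 200 changed genes.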

Additional observations from a re-analysis of the deposited data

How the results depend on the processing

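Of 96 called collagen changes between 2 groups, 39 kept direction and call under every alternative run, and 5 reversed under 1. On library size alone Col4a1 at day 7 against day 3 of WT muscle had a log2 change of −0.21. Without DTR replicate 2 of day 7 Col8a2 at day 7 against day 3 of DTR muscle had −0.11, the lowest of a range that reached 1.88 without DTR replicate 1. With the GC and length offset, under rIL-17A, Col1a1 had −0.155, Col5a3 −0.65 and Col7a1 −0.375. The causes were not tested.

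The number of collagens called moved by more than 1.5 times as follows. On library size alone it was 15 for day 7 against day 3 and 7 for day 14 against day 7 in WT muscle. With the GC and length offset it was 13 for WT and 16 for DTR muscle at day 7 against day 3. Without the filter it was 2 for DTR against WT muscle at day 7, 3 for the interaction, 1 for DTR against WT satellite cells and 1 for Vγ6 cells. DESeq2 gave 2 for DTR against WT muscle at day 7 and 2 for the interaction.

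Leaving out 1 library at a time gave 21 to 24 calls over days in WT and 25 to 28 in DTR muscle. For day 3 against day 1 it gave 1 to 5 in WT and 5 to 9 in DTR muscle, for day 7 against day 3 it gave 7 to 9 and 7 to 11, and for day 14 against day 7 it gave 6 to 12 and 11 to 20. DTR against WT muscle gave 0 to 0 at days 1, 3 and 14 and 0 to 5 at day 7, and the interaction 0 to 2. The range was 6 to 13 for rIL-17A, 0 to 0 for DTR against WT satellite cells, 19 to 22 for satellite cells against muscle and 0 to 1 for Vγ6 cells. Where 1 library was left in a group, it was assumed to vary like the others.

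Same-numbered samples did not deviate together in every pair (correlations of −0.005 to 0.192 at day 1), so the numbers were not taken as pairs. With the replicate block the calls numbered 0 for DTR against WT muscle on each day, 25 over days in WT and 29 in DTR muscle, 12 for day 14 against day 7 in WT muscle and 11 for rIL-17A. Groups of 2 or 3 libraries limit what can be called: in simulated data of the rIL-17A comparison 28 of 100 changes of 2-fold and 66 of 100 of 4-fold were recovered.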
